A study of Mus musculus with 4 samples.

Results

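The genes described here are 8 markers of the meninges, *Ptgds*, *Slc6a13*, *Slc13a4*, *Slc22a6*, *Gjb2*, *Gjb6*, *Cldn11*, and *Cdh1*, taken as a named list from 23946 gene symbols. All 8 were found by symbol, and their values were read to ask whether RNA of meningeal cells is present in the suture libraries. RNA-seq was performed on CD51+;CD200+ skeletal stem/progenitor cells sorted by FACS from the coronal (COR), sagittal (SAG), and posterior frontal (PF) sutures of the skull and from the growth plate (GP) of the tibia, which served as control. All mice were wild-type CD-1 at postnatal day 3, with no treatment, and cells of many mice were pooled into 1 library per tissue. The suture tissue was dissected together with the dura mater beneath it and the periosteum above it, and the cells were sorted as negative for the hematopoietic antigens CD45 and Ter119, the endothelial antigen Tie2, and CD105, 6C3, Thy1.1, and Thy1.2.

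The meninges are the membranes between skull and brain, with the dura mater next to the bone, then the arachnoid, and then the pia mater on the brain surface. Their fibroblasts derive from neural crest and mesoderm and signal to the overlying sutures and calvarial bones. Arachnoid cells form a barrier through tight junctions and adherens junctions, and meningeal fibroblasts carry many solute transporters and gap junctions. Most of the 8 markers are also known from other cells: *Ptgds* and *Slc13a4* from the choroid plexus, *Cldn11* from oligodendrocytes, *Gjb6* from astrocytes, and *Gjb2* and *Cdh1* from epithelia.

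The deposited values are FPKM, fragment counts scaled to transcript length and to the size of the library. How the library size was set is not given. Comparisons between genes and between libraries take this scaling as it stands. Since every tissue is a single library, replicate error could not be estimated and tissues were not tested against each other. Genes at FPKM of 1 or more made up 47.6 to 51.2% of all symbols in the 4 libraries. The depth was estimated from the step between low FPKM values after multiplication by transcript length, which is the worth of 1 fragment. It came to 17200000 fragments in PF, the shallowest library, and to between 33000000 and 39300000 in the other libraries, if FPKM was scaled in proportion to fragments. The SAG library stood apart through *Ttr*, the transthyretin gene of the choroid plexus, at 5103 FPKM, whereas PF had 465, COR 141, and GP 9.74. A listed 0 may be a failed estimate in COR, where 4 matrix genes that exceed 100 FPKM elsewhere have a 0 (*Col3a1*, *Sparc*, *Col1a2*, *Col1a1*), and in GP, where *Col1a2* has one. The 9 skeletal genes listed as a check, among them *Runx2*, *Sp7*, and *Prrx1*, were at FPKM of 1 or more in every library. So were *Itgav* and *Cd200*, the genes of CD51 and CD200, although this floor alone does not show identity. The skeletal levels were unequal: *Sp7* was at 7.93 FPKM in SAG and 200 in COR, and *Alpl* at 59.7 and 645. Of the 9 genes, 2 in PF, 3 in SAG, and 3 in COR were at least 3-fold below GP, and 1, 1, and 2 were at least 3-fold above it. Of the genes at FPKM of 1 or more in either library, 6.24, 3.86, and 3.20% were below GP and 5.72, 4.8, and 1.2% above it.

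Of the 8 meningeal markers, 5 reached FPKM of 1 in at least 1 suture library: *Ptgds*, *Slc13a4*, *Gjb2*, *Gjb6*, and *Cldn11*. SAG had 5 such markers, PF and COR had 4 each, and GP had 1, *Gjb2*. Without the SAG library 4 of 8 reached it in a suture, since *Slc13a4* did so only in SAG. Over all symbols, 57.3% reached it in at least 1 suture library, so the share of the markers is near that of all genes. The remaining 3 markers, *Slc6a13*, *Slc22a6*, and *Cdh1*, stayed below FPKM of 1 in all 4 libraries. The 8 markers summed to 109 FPKM in SAG, followed by PF with 45.3, COR with 12.8, and GP with 3.35. In SAG 83.7% of it came from *Ptgds* alone. In such pooled samples a smaller number of marker-positive cells and less RNA per cell cannot be told apart.

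**Figure D1:**
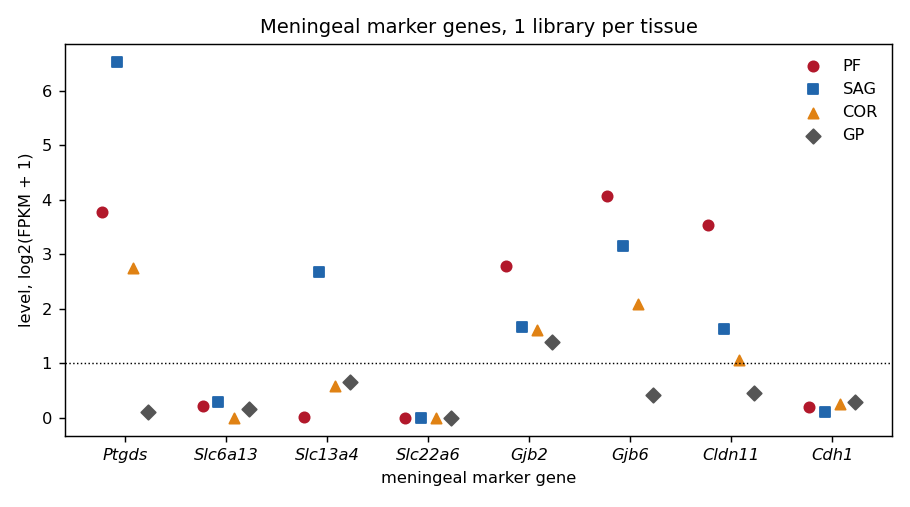
Level of each meningeal marker as log2(FPKM + 1), 1 point per library, with a dotted line at FPKM of 1. *Ptgds* was highest in SAG, *Gjb2*, *Gjb6*, and *Cldn11* were highest in PF, and *Slc6a13*, *Slc22a6*, and *Cdh1* lay below the line in all 4 libraries.

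*Ptgds* (mm9 chromosome 2, 25322229 to 25325566, minus strand) encodes lipocalin-type prostaglandin D synthase, a secreted enzyme that also carries lipophilic molecules in cerebrospinal fluid. SAG had 91.3 FPKM, followed by PF with 12.7, COR with 5.73, and GP with 0.0810. Among all genes of the SAG library it ranked 979, above or level with 95.9% of symbols, and in PF and COR it lay at 78.0% and 68.0%. The GP value corresponds to an estimated 2.4 fragments, so no plain ratio to GP is given. On the log2(FPKM + 1) scale the difference from GP was 6.42 in SAG, followed by 3.66 in PF and 2.64 in COR. All 3 sutures were thus above GP by more than 3-fold, which is 1.58 on this scale. PF minus SAG was -2.75 and COR minus SAG was -3.78 on the same scale, while the difference of 1.02 between PF and COR stayed under 3-fold.

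Next come the transporters. *Slc13a4* (chromosome 6, 35217957 to 35258131, minus strand) encodes a sodium-sulfate cotransporter. SAG had 5.35 FPKM, followed by GP with 0.575, COR with 0.507, and PF with 0.0168. The SAG value stood above the others: in log2(FPKM + 1), SAG minus GP was 2.01, PF minus SAG was -2.64, and COR minus SAG was -2.07. The value in PF corresponds to an estimated 1.0 fragment, and those in COR and GP to 60.1 and 64.9 fragments, so COR did not stand above the growth plate.

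*Slc6a13* (chromosome 6, 121250245 to 121287751, plus strand), a transporter of GABA and taurine, had 0.226 FPKM in SAG, followed by PF with 0.168 and GP with 0.125, and is listed at 0 in COR. These are an estimated 19.9, 6.4, and 9.2 fragments, and the differences from GP in log2(FPKM + 1) were 0.12 in SAG and 0.05 in PF. *Slc22a6* (chromosome 19, 8692486 to 8702789, plus strand), an organic anion transporter best known from the kidney, is listed at 0 in all 4 libraries. A count of 0 allows up to 3 fragments, which would be between 0.0190 FPKM in SAG and 0.0434 in PF, with only counting error covered and where the 0 is no failed estimate. Neither transporter could reach 3-fold on the log2(FPKM + 1) scale, which compresses differences at such low values.

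The gap junction genes were above FPKM of 1 in all 3 sutures. *Gjb6* (chromosome 14, 57742140 to 57752448, minus strand) had 15.8 FPKM in PF, followed by SAG with 7.88, COR with 3.25, and GP with 0.345. In log2(FPKM + 1) PF was above GP by 3.64, SAG by 2.72, and COR by 1.66, past 3-fold in each suture. PF was above COR by 1.98 and above SAG by 0.92, of which only the first is past 3-fold. *Gjb2* (chromosome 14, 57717437 to 57723539, minus strand), its neighbour on the same strand, had 5.90 FPKM in PF, followed by SAG with 2.19, COR with 2.06, and GP with 1.62. On the log2(FPKM + 1) scale PF was above GP by 1.40, SAG by 0.29, and COR by 0.23, all under 3-fold. Both connexin genes followed the order PF, SAG, COR, GP, although SAG and COR changed places for *Gjb2* with quantile normalization and relative to *Gapdh*. Their proportion was unequal: the ratio of *Gjb6* to *Gjb2* in FPKM was 3.59 in SAG, followed by 2.68 in PF, 1.58 in COR, and 0.213 in GP. Connexins are similar in sequence, and the coding sequences of the pair were identical at 75.8% of 681 aligned bases in the mm9 annotation. The longest identical stretch of their transcripts was 20 bases.

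The junction genes of the arachnoid barrier differed from each other. *Cldn11* (chromosome 3, 31048868 to 31063246, plus strand), which encodes a tight junction claudin, had 10.6 FPKM in PF, followed by SAG with 2.11, COR with 1.09, and GP with 0.372. PF was above GP by 3.08, above COR by 2.47, and above SAG by 1.90 in log2(FPKM + 1), past 3-fold in every comparison. SAG and COR were above GP by 1.18 and 0.61, under 3-fold. *Cdh1* (chromosome 8, 109127251 to 109194146, plus strand), which encodes E-cadherin, had 0.230 FPKM in GP, followed by COR with 0.197, PF with 0.151, and SAG with 0.0741. The differences from GP in log2(FPKM + 1) were -0.04 in COR, -0.10 in PF, and -0.20 in SAG, and the highest value corresponds to an estimated 33.6 fragments. The claudin was thus above FPKM of 1 in all 3 sutures and the cadherin in none.

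Relative to GP, 3 of the 8 markers were at least 3-fold higher in PF (*Ptgds*, *Gjb6*, *Cldn11*), 3 in SAG (*Ptgds*, *Gjb6*, *Slc13a4*), and 2 in COR (*Ptgds*, *Gjb6*), and none was 3-fold lower in any suture. Of all genes at FPKM of 1 or more in either library, 5.72% were at least 3-fold higher in PF than in GP, while the share was 4.8% for SAG and 1.2% for COR. At least 3-fold lower than GP were 6.24% in PF, 3.86% in SAG, and 3.20% in COR. Markers that reached this floor numbered 4 of 8 in PF and GP, 5 in SAG and GP, and 4 in COR and GP. With so few markers, the absence of lower calls is not a result about them. *Ptgds* and *Gjb6* were 3-fold higher than GP in all 3 sutures, as were 0.257% of the 13998 genes at FPKM of 1 or more in any library. The median difference from GP over all 8 markers, in log2(FPKM + 1), was 0.73 for both PF and SAG and 0.11 for COR. Over the genes that reached the floor it was 0.027 for both PF and SAG and 0.018 for COR. These comparisons share the GP library. Removing the floor changed none of these counts of markers.

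**Figure D2:**
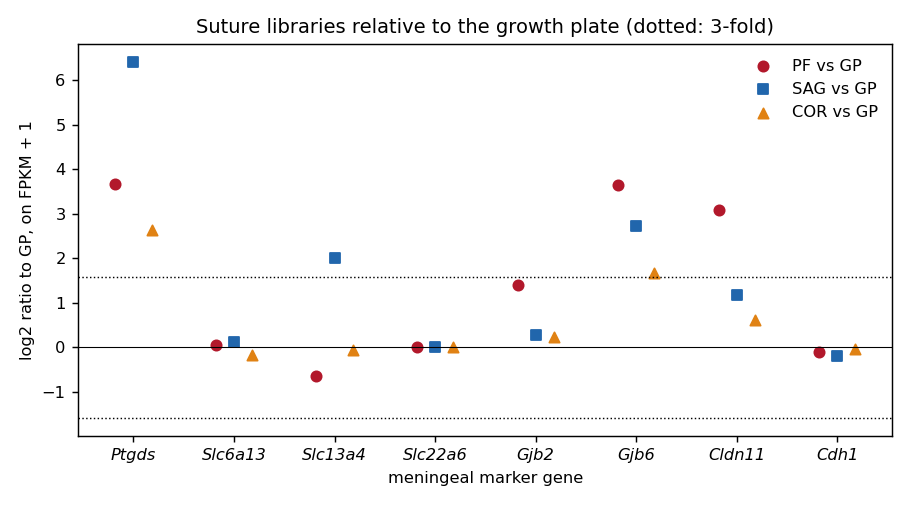
Difference of each suture library from GP in log2(FPKM + 1) for the 8 markers, with dotted lines at 3-fold in either direction. *Ptgds* and *Gjb6* passed the upper line in all 3 sutures, *Cldn11* only in PF, and *Slc13a4* only in SAG.

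Between the sutures, 3 of the 8 markers differed at least 3-fold between PF and SAG, with 5 at FPKM of 1 or more in either library. Of all genes at that floor, 15.7% did. *Cldn11* was higher in PF, and *Ptgds* and *Slc13a4* were higher in SAG. Between PF and COR, *Gjb6* and *Cldn11* were higher in PF, of 4 markers at the floor, against 11.7% of the genes at the floor in either direction. Between COR and SAG, *Ptgds* and *Slc13a4* were lower in COR, of 5 markers at the floor, against 9.25% of the genes at the floor in either direction. The 5 markers that reached FPKM of 1 thus fell into a set highest in PF (*Gjb2*, *Gjb6*, *Cldn11*) and a set highest in SAG (*Ptgds*, *Slc13a4*), with none highest in COR or GP. Among all 13998 genes considered, PF was the highest library for 35.2%, SAG for 28.4%, COR for 19.9%, and GP for 16.4%.

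The sequences just upstream of the transcription start are shown for *Gjb6* and *Cldn11*, the markers of the PF set that were at least 3-fold above GP in PF. Each is 250 bases of RefSeq, build GRCm38.p6, read on the strand of the gene. *Gjb6* is chr14:57133612-57133861, on the minus strand, and *Cldn11* chr3:31149670-31149919, on the plus strand. Capitals mark TAATCC, the site bound by Otx homeodomain proteins, on either strand.
Gjb6: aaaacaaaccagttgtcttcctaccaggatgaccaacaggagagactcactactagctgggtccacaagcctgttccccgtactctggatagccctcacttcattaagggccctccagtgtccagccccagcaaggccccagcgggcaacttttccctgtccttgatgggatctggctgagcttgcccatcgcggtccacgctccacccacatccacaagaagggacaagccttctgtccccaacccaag
Cldn11: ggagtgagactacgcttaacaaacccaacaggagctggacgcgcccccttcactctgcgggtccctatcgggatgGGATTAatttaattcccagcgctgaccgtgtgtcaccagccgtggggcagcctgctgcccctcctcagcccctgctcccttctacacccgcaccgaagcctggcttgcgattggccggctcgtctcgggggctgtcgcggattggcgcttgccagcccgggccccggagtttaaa
TAATCC was found on the minus strand of *Cldn11*, at position -175 from the start, and 6.25% of 32851 upstream regions of this length hold it on either strand. The forkhead core TGTTTAC, which 3.17% of these regions hold, was found in none of the upstream regions held for 7 of the markers. GGGCGG, the GC box, is held by 32.7% of regions. It was absent from the windows of *Ptgds*, *Gjb6*, and *Cldn11*, and was found 2 times in that of *Gjb2* and 1 time in that of *Slc13a4*. *Slc22a6* held TAATCC at position -54, and 1 of the *Slc6a13* windows held TAATCC at -67 and GGGCGG at -187 and -50. Matches of different motifs did not overlap. The window of *Ptgds* is not shown, since 93 of its 250 bases lie within coding transcripts of the mm9 annotation, as do 61 of those of the *Slc6a13* window with matches, whereas 0 do for *Gjb6* and *Cldn11*. These are matches of letters and not measured binding sites.

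Other genes of the meninges were read from lists that share no gene with the 8 markers. Of 9 transcription factor genes known from meninges, all 9 reached FPKM of 1 in PF and SAG, 6 did so in COR, and 4 in GP. Over all symbols, 47.6 to 51.2% reached it in a given library. *Foxd1*, a forkhead gene of meningeal and neural crest mesenchyme, had 135 FPKM in PF, followed by SAG with 52.3, COR with 37.1, and GP with 2.52. *Foxc1*, required for meningeal and calvarial development, kept that order with 62.4, 47.8, 24.4, and 24.0 FPKM, as did *Foxc2* with 44.7, 15.3, 8.34, and 8.22. These factors also mark skull mesenchyme, so they are not specific to meninges. At least 3-fold above GP were 6 of the 9 in both PF and SAG and 3 in COR. Of the genes at FPKM of 1 or more in either library, 5.72, 4.8, and 1.2% were above GP in PF, SAG, and COR by this rule. The median difference from GP in log2(FPKM + 1) was 1.88 for PF, 2.204 for SAG, and 0.80 for COR.

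Among 10 genes of pial and arachnoid fibroblasts, 8 reached FPKM of 1 in PF, 7 in both SAG and COR, and 5 in GP. *Igfbp2*, a binding protein of insulin-like growth factors, had 1828 FPKM in PF, followed by SAG with 542, COR with 198, and GP with 70.2. *S100a6* and *Crabp2* went the other way and were highest in GP, at 658 and 177 FPKM, compared with 240 and 67.7 in PF. *Aldh1a2*, the retinoic acid synthetic enzyme of arachnoid cells, had 62.1 FPKM in PF, followed by SAG with 7.09, GP with 1.66, and COR with 1.30. *Slc47a1*, a transporter of organic cations, had 12.1 FPKM in PF, followed by COR with 6.73, SAG with 2.47, and GP with 0.185. *Bmp7*, a bone morphogenetic protein gene, had 35.6 FPKM in SAG, followed by PF with 8.98, COR with 5.34, and GP with 4.63, and *Ranbp3l* was highest in COR, at 1.87. These 4 genes, *Aldh1a2*, *Slc47a1*, *Bmp7*, and *Ranbp3l*, were chosen after their values were seen, as were *Klf5* and *Dkk2* of the next list. At least 3-fold above GP were 4 of the 10 genes in PF, 3 in SAG, and a single gene in COR. Among all genes at FPKM of 1 or more in either library, 5.72, 4.8, and 1.2% were. The median difference over the list was 0.69 for PF, 0.66 for SAG, and 0.12 for COR in log2(FPKM + 1).

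Of 8 genes of the arachnoid barrier and dura, 7 reached FPKM of 1 in PF and 6 in each of the other libraries. *Fxyd5*, a regulator of the sodium pump that marks dura, had 846 FPKM in PF, followed by COR with 251, SAG with 232, and GP with 99.8. *Smoc2*, a matrix gene, had 201 FPKM in SAG, 199 in PF, 179 in GP, and 90.4 in COR. *Nppc*, which encodes a natriuretic peptide, had 87.3 FPKM in PF and 55.5, 39.7, and 32.1 in COR, GP, and SAG. Of this list only *Fxyd5*, in PF, was at least 3-fold above GP, where 5.72% of the genes at FPKM of 1 or more in either library were. At least 3-fold below GP were 1 gene in PF, 1 in SAG, and 2 in COR. Among the genes at that floor, 6.24, 3.86, and 3.20% were below GP in PF, SAG, and COR. *Klf5*, a zinc finger transcription factor gene, differed from GP by -3.62 in PF, -2.08 in SAG, and -2.68 in COR, and *Dkk2*, a Wnt pathway gene, by -1.89 in COR. The median differences of the list were 0.40 for PF, 0.0064 for SAG, and -0.23 for COR in log2(FPKM + 1). Over the 3 lists, 25 of 27 genes reached FPKM of 1 in some library, and PF was the highest library for 14 of these, SAG for 6, GP for 4, and COR for 1. That is 56.0% highest in PF, compared with 35.2% of the 13998 genes at FPKM of 1 or more in any library, as a description without a test.

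**Figure D3:**
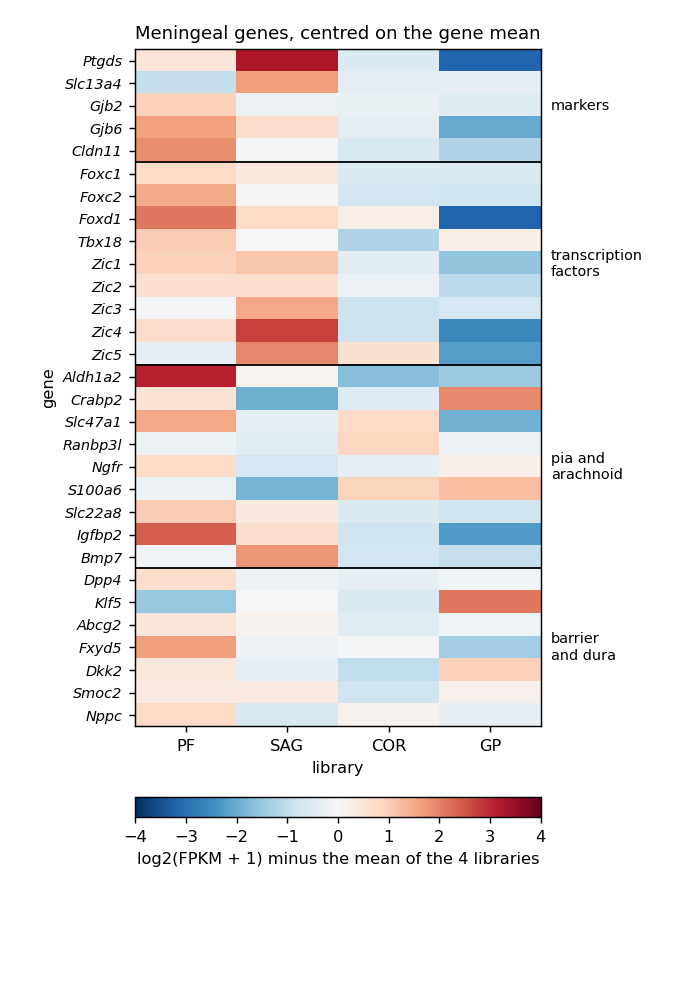
Levels of the markers and of the other meningeal genes that reached FPKM of 1 in some library, as log2(FPKM + 1) minus the mean of the 4 libraries, with 1 column per library. Of the 25 genes of the other lists 14 were highest in PF, among them *Foxd1*, *Igfbp2*, and *Fxyd5*, and *Ptgds* was highest in SAG.

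Markers of other cell types moved with some of the meningeal markers, and their part in the results was not tested. Of the 14 choroid plexus genes, 11 reached FPKM of 1 in SAG, 8 in PF, 6 in GP, and 5 in COR. Among those that reached it in some library, 8 were highest in SAG, as were *Ptgds* and *Slc13a4*, 3 in GP, and 1 in COR. *Sostdc1* and *Enpp2* were at 102 and 83.0 FPKM in GP and at 36.0 and 55.8 in SAG. *Aqp1* was at 53.8 FPKM in COR and at 11.9 in SAG. The summed level of the list was 5400 FPKM in SAG, with 5103 from *Ttr* alone, and between 244 and 597 in the others. *Ttr* and *Ptgds* had the same order of libraries, and as a share of *Ttr* in FPKM *Ptgds* was 4.06% in COR, followed by 2.72% in PF and 1.79% in SAG. No share is given for GP, where *Ptgds* rests on an estimated 2.4 fragments. In PF, where *Gjb6* and *Cldn11* were highest, *Ttr* was at 465 FPKM and *Calml4*, another gene of the list, at 64.4. The neuron list had 6 of 11 genes at FPKM of 1 or more in SAG and 2 in each other library, and the astrocyte list had 6 of 6 in SAG and 2 in each other library. *Aqp4* and *Gfap*, defining genes of astrocytes, were at 1.54 and 1.01 FPKM in SAG, and *Aqp4* is listed at 0 in the other libraries. In PF, where *Gjb6* was highest, *Slc1a3* of this list was at 10.7 FPKM, compared with 8.48 in GP, 6.97 in COR, and 6.07 in SAG. *Aldoc* was at 3.28 FPKM in PF, 5.40 in GP, and 15.8 in SAG, and *Gfap* was at 0.522 in PF.

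*Cldn11* is also a gene of oligodendrocytes, whose defining markers were at or near 0: *Mobp* is listed at 0 in all 4 libraries, and *Mog* was at no more than 0.142 FPKM. *Mbp*, which Schwann cells share, was at 88.1 FPKM in PF and at 82.9 in GP, where *Cldn11* was at 0.372. The summed level of the oligodendrocyte list was 207 FPKM in PF and 206 in GP, and 42.6 in SAG and 68.1 in COR. *Gjb2*, *Gjb6*, and *Cdh1* are also genes of epithelia. The epithelial list had 5 of 11 genes at FPKM of 1 or more in both SAG and COR and 3 in both PF and GP, and it summed to 141 FPKM in SAG and to between 16.4 and 25.6 elsewhere. In PF, where both connexin genes were highest, *Krt10* was at 12.6 FPKM, *Krt15* at 9.87, and *Krt1* at 2.45, and the other 8 genes were each below 1. *Krt15*, as *Gjb6*, was above GP in each suture, with differences in log2(FPKM + 1) of 3.21 in PF, 6.59 in SAG, and 1.97 in COR. *Krt15* was highest in SAG, however, whereas *Gjb6* was highest in PF. Among the basal genes, *Krt14* is listed at 0 in all 3 sutures, and *Krt5* is listed at 0 in PF and was at 2.10 FPKM in COR. The lists of endothelium and leukocytes, which carry antigens the sort selected against, had at most 2 of 6 and 1 of 5 genes at FPKM of 1 or more. The endothelial genes that reached this level were *Kdr* and *Cdh5* in PF, *Kdr* in SAG, and *Cldn5*, just past it, in COR. *Kdr* was at 14.9 FPKM in SAG and at 2.12 in PF, and *Cdh5* was at 1.68 in PF. The leukocyte gene was *Cd68*, at 3.63 FPKM in PF and at 3.01 in SAG. *Pecam1* was at most at 0.295 FPKM and *Ptprc* at most at 0.568.

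**Figure D4:**
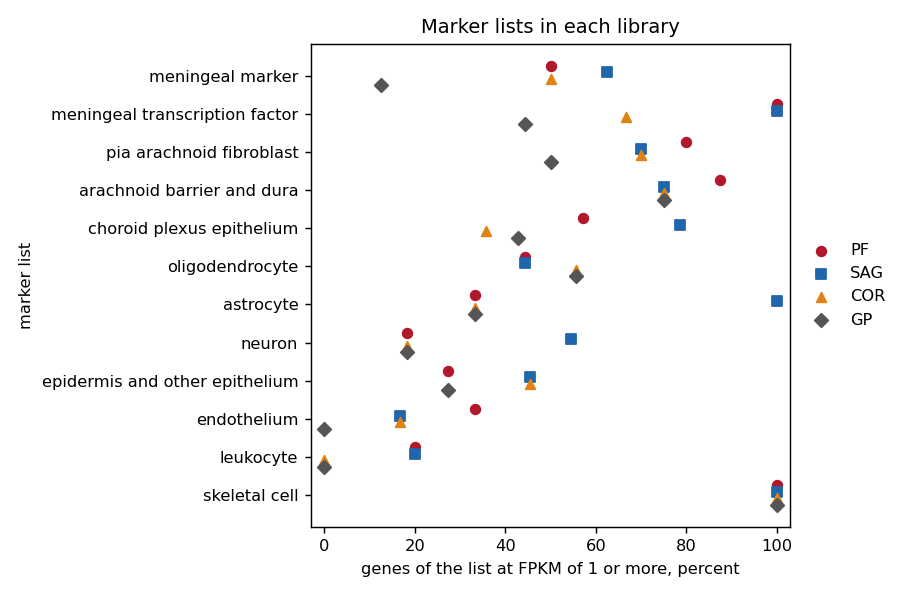
Share of the genes of each marker list at FPKM of 1 or more in each library, in percent of the genes of the list. The 9 skeletal genes reached it in all 4 libraries, the 9 meningeal transcription factors in PF and SAG, and the choroid plexus, astrocyte, and neuron lists had their largest counts in SAG.

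The genes with the most similar pattern were sought by Euclidean distance over the 4 centred log2(FPKM + 1) values, among the other 9801 genes with FPKM of 5 or more in some library. With only 4 libraries many genes share a pattern, so this is a description. For *Ptgds* the nearest were *Bsx*, at a distance of 0.57, *Krt15*, at 0.68, and *Gm5089*, at 0.80. *Bsx*, a brain homeobox gene, had 115 FPKM in SAG, followed by PF with 11.6, COR with 4.09, and GP with 0.236. *Krt15* had 112 FPKM in SAG, followed by PF with 9.87, COR with 3.58, and GP with 0.171. For *Slc13a4* the nearest were *Gyg*, *1700047M11Rik*, and *Rprm*, at distances of 0.15, 0.25, and 0.29. For *Gjb6* they were *2310015B20Rik*, *Slc24a3*, and *Tmeff2*, at 0.30, 0.31, and 0.35, and for *Gjb2* they were *Mib2*, *Tap1*, and *Kcne4*, at 0.043, 0.059, and 0.080. Among the genes nearest to *Cldn11* were *Nrsn1*, at 0.20, and *Icam1*, at 0.23. Among the markers themselves the closest pair was *Gjb6* and *Cldn11*, at 1.15. *Cldn11* was at rank 48 among the genes nearest to *Gjb6*, and *Gjb6* at rank 247 among those nearest to *Cldn11*. *Ptgds* and *Slc13a4*, both highest in SAG, were 3.56 apart, and *Slc13a4* ranked 397 among the genes nearest to *Ptgds*.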

How the data were processed

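RNA of CD51+;CD200+ cells was sequenced in 1 library for each of PF, SAG, COR, and GP. For alignment the authors used STAR 2.5.1b on the mm9 build, and they obtained the deposited FPKM of each gene from Cuffdiff (Cufflinks 2.2.1) and an iGenomes annotation. The library scaling chosen in Cuffdiff is not given in the sources used here. Members and lists were chosen with earlier results of these data known. Differences were taken in log2(FPKM + 1), which understates changes of genes with low values. A gene entered a comparison when either library had it at FPKM of 1 or above, and 3-fold was the size rule. No p-value was computed.

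Named were all 8 markers, up to 3 genes of a list with the highest FPKM, and the 3 nearest genes of each marker that reached FPKM of 5. Other list genes, such as defining genes of a cell type at or near 0, were named after their values were seen. Some genes that the rule names are not reported here. *Gapdh* served as an alternative scale. Depth was estimated from genes with 1 coding transcript of 1500 bases or more in GENCODE, on mm9. Estimated fragments are FPKM times the length of the longest coding transcript divided by the step, and are approximate for short genes such as *Ptgds*. No exon of the 8 markers overlapped another gene in that annotation. Upstream sequences came from RefSeq, which matched 7 markers.

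Alternatives were another pseudocount, other floors, another fold, median-ratio scaling, quantile normalization, values relative to *Gapdh*, a loess correction for GC content, and leaving out SAG or PF. Python 3.11.15, numpy 2.4.6, pandas 2.3.3, statsmodels 0.14.6, biopython 1.88, and matplotlib 3.10.9 were used. The ratio step was tested on simulated data.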

Additional observations from a re-analysis of the deposited data

How the results depend on the processing

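No paired analysis was possible because the tissues have no replicates to pair. With a floor of FPKM 5 in place of 1, 3 markers were counted in SAG, 1 in COR, and 0 in GP, while PF kept its count of 4. With a floor of 0.1, 6 markers were counted in GP and also 6 in each suture, so the higher counts of the sutures were not seen at that floor. When either library had to reach FPKM 5, 1 marker was 3-fold higher in COR than in GP, in place of 2, since *Gjb6* fell below this floor there. With a 2-fold threshold, 4 markers differed between PF and COR, in place of 2. *Gjb2* in PF passed 3-fold over GP with a pseudocount of 0.1, at 1.80 in log2 units, and relative to *Gapdh*, at 1.77, and *Cldn11* in SAG passed it with a pseudocount of 0.1, at 2.22. Division by *Gapdh* moved the median over genes at FPKM of 1 or more in either library by 0.41 for PF vs GP and by 0.47 for PF vs SAG.

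Of 155 values for single markers under the alternatives, 152 stayed on their side of 3-fold and 3 came to pass it, and no difference past 3-fold changed its direction. Under 3-fold, COR minus SAG of *Gjb2*, -0.06 in log2(FPKM + 1), became 0.22 with quantile normalization and 0.13 relative to *Gapdh*. The GC correction and leaving out SAG or PF were chosen after seeing the data. The GC correction changed no count, and without SAG or PF 4 and 5 markers reached FPKM of 1 in a suture. With 1 library per tissue, a property of a tissue and one of its library cannot be told apart, and low FPKM in PF rests on the fewest fragments.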

Other observations

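Some lists of other cell types had a single gene with most of their summed level in SAG. *Krt15*, a keratin gene, was at 112 FPKM in SAG, followed in its list by *Krt10* at 11.2, *Krt18* at 10.2, *Krt8* at 3.92, and *Krt1* at 2.48, while *Krt5* was at 0.0633. *Slc17a6*, a vesicular glutamate transporter gene, was at 48.6 FPKM in SAG and at no more than 1.37 in the other libraries, and 5 other genes of the neuron list also reached FPKM of 1 in SAG: *Map2* at 4.43, *Snap25* at 2.21, *Syt1* at 1.80, *Tubb3* at 1.28, and *Rbfox3* at 1.01. *Stmn2* was at 0.120 and *Elavl3* is listed at 0 there. *Kdr*, a receptor of vascular endothelial growth factor, was at 14.9 FPKM in SAG, while the other 5 genes of its list were between 0.0406 and 0.649 there. In COR *Tubb3* was at 10.2 FPKM, compared with 1.28 to 1.65 in the other libraries, while *Snap25* is listed at 0 in COR. These genes were chosen after their values were seen.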
